A study of Caenorhabditis elegans with 36 samples.

Results

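The hairpins cel-mir-72, cel-mir-73 and cel-mir-74, called mir-72, mir-73 and mir-74 below, are 3 microRNA (miRNA) precursors of the nematode Caenorhabditis elegans that are counted as relatives of miR-31. They were taken by name from a table of 250 hairpins, and all 3 were among the 193 hairpins with enough counts to be tested. The 36 libraries, 3 in each of 12 groups, held small RNA of whole N2 hermaphrodites. N2 is the standard wild-type strain. Worms were given rotenone, an inhibitor of complex I of the mitochondrial respiratory chain, at 100 nM for 6 hours or for 1, 2, 3 or 5 days, DMSO at 0.1 %, the vehicle, for the same 5 times, or H2O at 0.1 % for 1 or 5 days. By the series title these are times after treatment, and in the sample labels the same values stand as ages. The labels do not say whether replicate libraries of a group were grown as separate cultures. The p-values therefore measure only the spread between libraries, which may be technical.

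A miRNA is cut from a hairpin in its primary transcript, is loaded into an Argonaute protein and represses messenger RNAs that pair with its seed, the bases near its 5′ end. Hairpins with the same seed form a family whose members can share targets while being made at different times or in different cells. miR-31 is an old animal miRNA, best known in mammals for its roles in cancer spread and muscle. In the WBcel235 annotation mir-72 lies on chromosome II and overlaps no other gene. On its strand the protein-coding gene vab-19 precedes it and the miRNA gene mir-8195 follows. mir-73 and mir-74 lie next to each other on the plus strand of chromosome X. mir-74 overlaps 2 annotated non-coding RNAs there, T24D8.14 on its own strand and T24D8.16 on the other. The use of strand in the counting, and the placing of reads that match several hairpins, is not given in the sources used here. The division of counts among members and their overlapping genes is therefore uncertain.

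The 3 hairpins differed widely in abundance and together took between 6.98% and 10.9% of all counts of a library. mir-72 made up most of this, with 89.9% to 96.3% of the family's counts, and ranked between 2 and 4 among all hairpins in every library. mir-73 ranked between 27 and 33, and mir-74 between 48 and 72. These are shares of reads and not of molecules, since ligation and amplification favour some miRNAs over others. Raw counts ran from 457489 to 967484 for mir-72, from 18110 to 88067 for mir-73 and from 1423 to 13957 for mir-74. Total counts per library ran from 4361246 to 14960062, and the 5-day libraries of all 3 treatments were among the shallowest.

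All 3 libraries of a group shared 1 lane of the sequencer, and at every time the rotenone lane was not the DMSO lane. Treatment and lane therefore cannot be told apart within a time. Lane 8 held the rotenone groups of 1 and 3 days and the 6-hour DMSO group. H2O was on lane 3 at 1 day and on lane 2 at 5 days. It thus shared no lane with rotenone or DMSO of the same time, and its own times were on different lanes. Levels below are CPM, that is counts brought to 1 library size with TMM factors, and a change is a log2 fold change ± SE with 3 libraries per group. A hairpin is said to rise or fall where its p from edgeR's quasi-likelihood test, adjusted by Benjamini-Hochberg over the 193 hairpins, lay below 0.05. RNA came from whole worms, so fewer cells of a type and less RNA per cell cannot be told apart.

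Across time the 3 hairpins did not move together. mir-72 was highest at 5 days, mir-74 at 1 and 2 days, and mir-73 varied least. Over the 12 group means mir-72 spanned 1.84-fold, from 62805 ± 2158 CPM (SD, n = 3) in H2O at 1 day to 115596 ± 2851 CPM in DMSO at 5 days. mir-73 spanned 1.53-fold, from 4129 ± 508 CPM in DMSO at 6 hours to 6311 ± 719 CPM in DMSO at 2 days. mir-74 spanned 4.53-fold, from 248 ± 20.7 CPM in rotenone at 6 hours to 1124 ± 45.7 CPM in rotenone at 2 days.

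**Figure D1:**
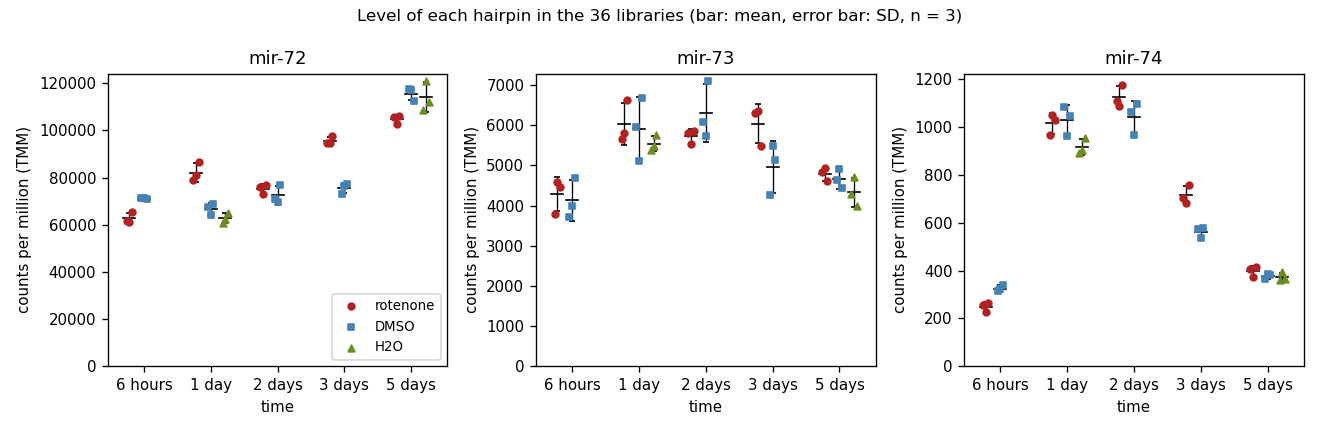
CPM (counts brought to 1 library size with TMM factors, y axis from 0) of mir-72, mir-73 and mir-74 in each library against time, with rotenone as circles, DMSO as squares and H2O as triangles. Bars are means and error bars SD (n = 3): mir-72 is highest at 5 days, while mir-74 lies at 891 CPM or more in each library of 1 and 2 days and at 414 CPM or less in each library of 6 hours and 5 days.

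mir-74, the rarest member, rose in the first day of either treatment. Its rotenone libraries held 966, 1051 and 1028 CPM at 1 day and 255, 225 and 265 CPM at 6 hours, and the groups did not overlap, as in 66.3% of hairpins. The change was 2.03 ± 0.066, or 4.09-fold (adjusted p = 1.33e-25). Its DMSO libraries held 1083, 962 and 1048 CPM at 1 day and 313, 321 and 341 CPM at 6 hours, a rise of 1.67 ± 0.065, or 3.17-fold (adjusted p = 1.94e-23). This rise ranked 28th of 193 by size in DMSO and 20th in rotenone, in comparisons in which many hairpins changed. In rotenone all 3 members rose between 6 hours and 1 day, where 32.6% of the 193 hairpins rose. In DMSO mir-73 and mir-74 rose, where 30.6% did.

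mir-74 was at its highest levels at 1 and 2 days and then declined. At 2 days its rotenone libraries held 1107, 1089 and 1176 CPM, and its DMSO libraries 1063, 967 and 1097 CPM. The difference between 2 and 1 days did not pass in rotenone (0.15 ± 0.063, adjusted p = 0.0686), although the groups did not overlap, as in 50.3% of hairpins, nor in DMSO (0.016 ± 0.063, adjusted p = 0.856), where 44% of hairpins passed and 0 of the 3 members did. In rotenone it passed in 6 of the 7 other ways of scaling or fitting that were run. At 3 days mir-74 was at 704, 681 and 758 CPM in rotenone and at 572, 537 and 577 CPM in DMSO. It had fallen by 0.65 ± 0.064 on the log2 scale in rotenone (adjusted p = 2.49e-10) and by 0.89 ± 0.064 in DMSO (adjusted p = 2.02e-14). In these comparisons 16.6% of hairpins fell in rotenone and 23.3% in DMSO. mir-74 had the second smallest of 193 p-values in rotenone and the third smallest in DMSO. From 3 to 5 days it fell again, by 0.84 ± 0.065 in rotenone (adjusted p = 1.16e-13) and by 0.57 ± 0.065 in DMSO (adjusted p = 1.45e-09). At this step 27.5% of hairpins fell in rotenone and 22.8% in DMSO.

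At 5 days mir-74 was low again. Its CPM still lay above those of 6 hours of the same treatment, but this comparison was not tested. As shares of all counts, mir-74 overlapped between these times in DMSO. It took 0.0326%, 0.0335% and 0.0349% at 5 days and 0.0341%, 0.0336% and 0.0344% at 6 hours. Its libraries held 405, 375 and 414 CPM in rotenone, 365, 386 and 382 CPM in DMSO, and 361, 392 and 363 CPM in H2O, with overlap between each pair of treatments. In the H2O worms it was at 361, 392 and 363 CPM at 5 days and 891, 903 and 954 CPM at 1 day, a fall to 0.406 of its 1-day level (log2 SE 0.066, adjusted p = 6.27e-20). Here mir-72 rose and mir-73 and mir-74 fell, in a comparison in which 27.5% of hairpins rose and 30.1% fell.

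mir-73 followed the course of mir-74 with a smaller span. It rose between 6 hours and 1 day by 0.49 ± 0.095 in rotenone (adjusted p = 2.43e-05) and by 0.52 ± 0.095 in DMSO (adjusted p = 8.98e-06). Its rotenone libraries held 5661, 5800 and 6620 CPM at 1 day and 3800, 4597 and 4454 CPM at 6 hours. Its DMSO libraries held 5963, 5103 and 6690 CPM at 1 day and 3706, 3990 and 4693 CPM at 6 hours. Neither pair of groups overlapped, which in DMSO held for 69.9% of hairpins, but the DMSO libraries of 1 day were themselves widely spread. The decline came at different steps. In rotenone mir-73 fell between 3 and 5 days (-0.33 ± 0.095, adjusted p = 0.00352), and in DMSO between 2 and 3 days (-0.35 ± 0.095, adjusted p = 0.00255). Between 3 and 2 days in rotenone the difference was 0.077 ± 0.095 (adjusted p = 0.6), and between 5 and 3 days in DMSO -0.089 ± 0.095 (adjusted p = 0.488). Scaled by total counts, mir-73 fell at this last step as well (-0.30, adjusted p = 0.00217).

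mir-72, by far the most abundant of the 3, rose late. In DMSO it was at 117370, 117110 and 112307 CPM at 5 days and at 73222, 76268 and 77476 CPM at 3 days, a rise of 0.61 ± 0.050, or 1.53-fold (adjusted p = 5.57e-13), where 22.8% of hairpins rose. In H2O it was at 108723, 121061 and 112180 CPM at 5 days and at 60883, 62392 and 65139 CPM at 1 day, a rise of 0.86 ± 0.051, or 1.81-fold (adjusted p = 8.85e-18). Scaled by total counts, the rises to 5 days were smaller, 0.40 in DMSO and 0.65 in H2O, and still passed. In rotenone the climb was spread over more steps. mir-72 rose by 0.39 ± 0.050 between 6 hours and 1 day (adjusted p = 2.42e-08) and by 0.35 ± 0.050 between 2 and 3 days (adjusted p = 1.06e-06). It rose by 0.13 ± 0.050 between 3 and 5 days (adjusted p = 0.0263). In order of time, rotenone was on lanes 1, 8, 2, 8 and 3, and DMSO on lanes 8, 2, 1, 3 and 1. Both larger rises in rotenone were thus moves onto lane 8, and time and lane cannot be told apart there. With total counts they were 0.20 and 0.24. Between 2 and 3 days 20.2% of hairpins rose, and between 3 and 5 days 21.8%. Between 1 and 2 days, a move from lane 8 to lane 2, mir-72 fell by 0.13 ± 0.050 (adjusted p = 0.0488), where 22.3% of hairpins fell. The rise from 3 to 5 days was lost with total counts (0.051, adjusted p = 0.314), without the filter on low counts (0.12, adjusted p = 0.197), and without replicate 1 or 2 of 3 days or any 1 replicate of 5 days (adjusted p from 0.0517 to 0.102). The fall from 1 to 2 days was lost in 6 of the 7 other ways of scaling or fitting, among them DESeq2 size factors (-0.051, adjusted p = 0.468) and total counts (-0.040, adjusted p = 0.538). It was also lost without replicate 2 or 3 of 1 day or any 1 replicate of 2 days (adjusted p from 0.0609 to 0.248). In DMSO the differences were -0.091 ± 0.050 between 1 day and 6 hours (adjusted p = 0.11), 0.12 ± 0.050 between 2 and 1 days (adjusted p = 0.051) and 0.061 ± 0.050 between 3 and 2 days (adjusted p = 0.33). The first of these passed with total counts (-0.11, adjusted p = 0.0262) and with library totals that left out the 3 members (-0.12, adjusted p = 0.0394). The difference between 2 and 1 days in DMSO passed under all 7 other ways of scaling or fitting and without replicate 2 of 2 days (0.15, adjusted p = 0.0382).

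Consecutive times were on different lanes, but 2 pairs of times of 1 treatment shared a lane, and these were examined after the values had been seen. On lane 1, DMSO worms had more mir-72 at 5 than at 2 days (0.67 ± 0.051, adjusted p = 1.09e-14), less mir-73 (-0.44 ± 0.095, adjusted p = 0.000116) and less mir-74 (-1.46 ± 0.066, adjusted p = 2.41e-21). In this comparison 33.2% of hairpins were higher and 34.7% lower. On lane 8, rotenone worms had more mir-72 at 3 than at 1 day (0.22 ± 0.050, adjusted p = 0.000425) and less mir-74 (-0.51 ± 0.064, adjusted p = 1.46e-08), with mir-73 at 0.0041 ± 0.095 (adjusted p = 0.981), where 21.2% were higher and 21.2% lower. Scaling by total counts instead moved the median of all hairpins by -0.28 on the log2 scale for 5 against 2 days in DMSO, the most of the comparisons between times. The opposite directions of mir-72 and mir-74 on each of these lanes held with total counts, though mir-72 then rose by only 0.40 on lane 1.

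Ratios of counts within a library do not depend on how libraries are scaled, and they moved with time. mir-74 stood at 0.395%, 1.24%, 1.49%, 0.747% and 0.379% of mir-72 counts in rotenone at 6 hours and at 1, 2, 3 and 5 days. In DMSO the means were 0.457%, 1.54%, 1.44%, 0.743% and 0.327%. The ratio thus changed 3.94-fold among times in rotenone and 4.72-fold in DMSO. A permutation test of the time labels, added after the values had been seen, gave p = 1e-05 in each treatment, the smallest that 100000 resamples can give (adjusted p = 2e-05 over 6 tests). The ratio of mir-73 to mir-72 changed 1.67-fold in rotenone (adjusted p = 6e-04 in the same permutation test) and 2.19-fold in DMSO (adjusted p = 4e-05).

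Although mir-73 and mir-74 are neighbours on the same strand, their ratio was not constant either. mir-74 stood at 5.85% ± 0.912 of mir-73 counts (SD, n = 3) in rotenone at 6 hours, 16.9% ± 1.31 at 1 day, 19.6% ± 0.499 at 2 days, 11.9% ± 1.68 at 3 days and 8.32% ± 0.698 at 5 days. In DMSO it stood at 7.92% ± 0.598, 17.6% ± 1.67, 16.6% ± 1.04, 11.5% ± 1.85 and 8.11% ± 0.449 at the same times. The ratio changed 3.38-fold among times in rotenone (adjusted p = 2e-05 in the permutation test) and 2.21-fold in DMSO (adjusted p = 6e-05). mir-75, the next hairpin gene on that strand, was named after its values were seen. It averaged 137 ± 10.2 CPM at 1 day and 144 ± 0.766 CPM at 6 hours in rotenone (SD, n = 3), and 123 ± 8.89 CPM at 1 day and 146 ± 4.96 CPM at 6 hours in DMSO. Across the 12 group means its r with mir-74 was -0.548.

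**Figure D2:**
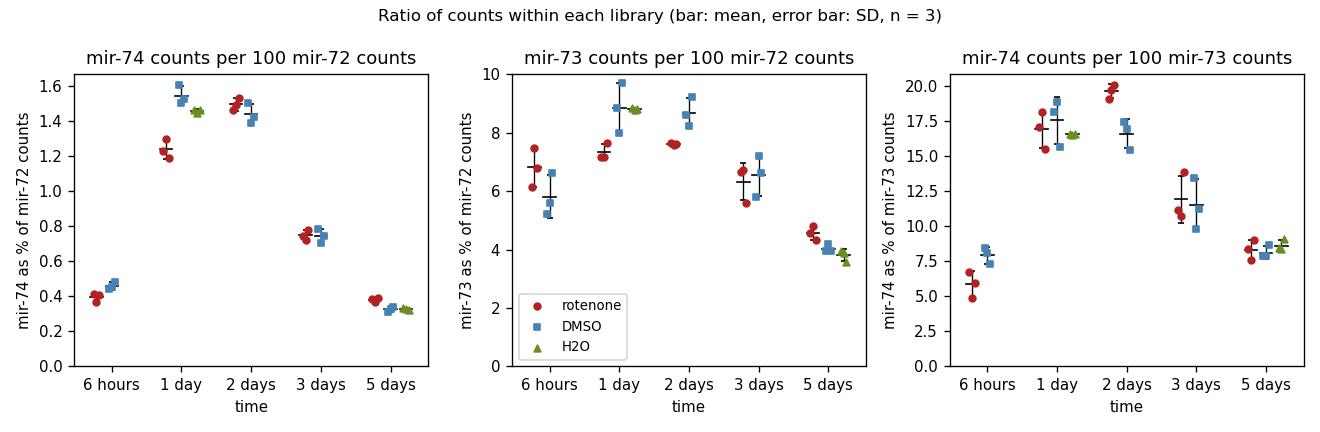
Counts of one hairpin as a percentage of those of another in the same library, against time, for rotenone (circles), DMSO (squares) and H2O (triangles), with means and SD (n = 3) and y axes from 0. The means of mir-74 lie between 1.24% and 1.54% of mir-72 and between 16% and 20% of mir-73 at 1 and 2 days, and all 3 ratios are lower at 5 days than at 2 days.

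Rotenone and DMSO differed in opposite directions at 6 hours and at 3 days. At 6 hours mir-74 and mir-72 fell with rotenone, where 10.9% of the 193 hairpins fell, and at 3 days all 3 members rose, where 8.29% did. At 1 day mir-72 rose, where 10.4% did. At 2 days 42.5% of hairpins differed and 46.1% had groups that did not overlap, while of the 3 members 0 passed the test and all overlapped. At 5 days 1.04% differed, and 0 of the 3 passed. The median change of the 3 was -0.18 at 6 hours and 0.34 at 3 days, against -0.054 and 0.011 over all 193 hairpins.

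At 6 hours mir-74 was at 255, 225 and 265 CPM in rotenone, against 313, 321 and 341 CPM in DMSO, so that the groups did not overlap, as in 21.8% of hairpins. It fell by 0.39 ± 0.065 on the log2 scale, to 0.764 of its DMSO level (adjusted p = 4.02e-05). Fitted to these 6 libraries alone it did not pass (-0.31, adjusted p = 0.0843). mir-72 was at 61697, 61368 and 65419 CPM in rotenone and at 71217, 71133 and 70909 CPM in DMSO, a fall of 0.18 ± 0.050 (adjusted p = 0.0214). This smaller fall was lost with total counts (-0.094, adjusted p = 0.244), with DESeq2 size factors (-0.14, adjusted p = 0.0748) or without the filter on low counts (-0.084, adjusted p = 0.637). It was lost as well with library totals that left out the 3 members (-0.070, adjusted p = 0.503), in a fit of these 6 libraries alone (-0.10, adjusted p = 0.369), and without rotenone replicate 1 or 2 or DMSO replicate 1 or 2 (adjusted p from 0.0532 to 0.0713). mir-73 overlapped between the groups, at 3800, 4597 and 4454 CPM in rotenone and 3706, 3990 and 4693 CPM in DMSO (0.053 ± 0.095, adjusted p = 0.812).

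At 1 day mir-72 was at 78785, 80908 and 86584 CPM in rotenone, at 67435, 63954 and 68817 CPM in DMSO and at 60883, 62392 and 65139 CPM in H2O. All 3 rotenone libraries, on lane 8, lay above the 6 of the vehicles, on lanes 2 (DMSO) and 3 (H2O). Rotenone did not overlap with DMSO in 32.6% of hairpins and with H2O in 32.1%. The rise was 0.30 ± 0.050 over DMSO, or 1.23-fold (adjusted p = 7.76e-05), and 0.39 ± 0.050 over H2O, or 1.31-fold (adjusted p = 7.74e-07), the smallest of 193 p-values in that comparison, in which 8.29% of hairpins rose. The rotenone libraries are shared by both comparisons. mir-73 and mir-74 overlapped between rotenone and DMSO and did not pass (0.026 ± 0.095, adjusted p = 0.886, and -0.022 ± 0.063, adjusted p = 0.866). mir-74 lay above H2O in all libraries of rotenone (0.15 ± 0.063, adjusted p = 0.135) and of DMSO (0.17 ± 0.063, adjusted p = 0.425) without passing in either, and 13% of hairpins did not overlap between DMSO and H2O.

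At 2 days the values of mir-72 overlapped, at 75804, 72987 and 76807 CPM in rotenone and 70874, 69631 and 77016 CPM in DMSO (0.053 ± 0.050, adjusted p = 0.436). mir-73 stood at 5799, 5535 and 5856 CPM in rotenone and 6093, 5726 and 7114 CPM in DMSO (-0.14 ± 0.095, adjusted p = 0.248). mir-74 was 0.11 ± 0.063 higher in rotenone, without passing (adjusted p = 0.172).

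At 3 days mir-72 was at 94503, 94620 and 97694 CPM in rotenone, against 73222, 76268 and 77476 CPM in DMSO. It rose by 0.34 ± 0.050, or 1.26-fold (adjusted p = 7.2e-06). mir-74, at 704, 681 and 758 CPM in rotenone and 572, 537 and 577 CPM in DMSO, rose by 0.35 ± 0.064, or 1.27-fold (adjusted p = 0.000255). Neither pair of groups overlapped, as in 28% of hairpins, and these were the second and the third smallest of 193 p-values. mir-73 was at 6303, 6351 and 5477 CPM in rotenone and 4256, 5493 and 5137 CPM in DMSO, and the groups overlapped. Its rise of 0.28 ± 0.095 (adjusted p = 0.041) was lost with total counts (0.20, adjusted p = 0.0933), without the filter (0.26, adjusted p = 0.0544) and in a fit of these 6 libraries alone (0.28, adjusted p = 0.0769). It was also lost without DMSO replicate 1 (0.18, adjusted p = 0.289) or 3 (0.31, adjusted p = 0.0558), or without rotenone replicate 1 (0.25, adjusted p = 0.134) or 2 (0.25, adjusted p = 0.166).

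At 5 days mir-72 was at 105610, 102917 and 106198 CPM in rotenone, against 117370, 117110 and 112307 CPM in DMSO and 108723, 121061 and 112180 CPM in H2O. The rotenone libraries lay below all 6 of the vehicles, and 16.1% of hairpins did not overlap with DMSO and 18.7% with H2O. Neither difference passed (-0.14 ± 0.050, adjusted p = 0.278 against DMSO, and -0.12 ± 0.050, adjusted p = 0.255 against H2O), and against H2O 1.04% of hairpins did. mir-73 was at 4827, 4941 and 4608 CPM in rotenone, 4646, 4923 and 4429 CPM in DMSO and 4293, 4702 and 3998 CPM in H2O, all overlapping. mir-74 differed from DMSO by 0.075 ± 0.066 (adjusted p = 0.754). DMSO and H2O differed in 0 of the 193 hairpins at 1 day and 0 at 5 days in edgeR. Unadjusted p lay below 0.05 for 14 and 8 hairpins, and DESeq2 called 1 and 0.

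**Figure D3:**
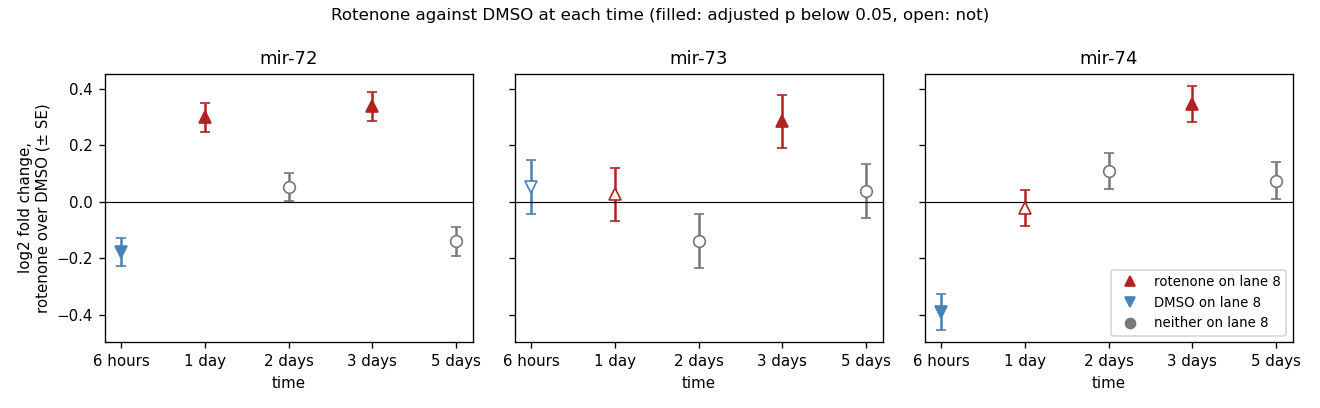
Log2 fold change of rotenone over DMSO at each time for each hairpin, with SE (3 libraries per group). Filled symbols have an adjusted p below 0.05, and the shape shows which group was on lane 8: at 6 hours, 1 day and 3 days mir-72 was higher in the lane 8 group each time.

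The change with rotenone differed between times for mir-72 (F-test of the 5 differences, adjusted p = 1.69e-07) and mir-74 (adjusted p = 1.86e-06), where 45.1% of hairpins passed, and did not pass for mir-73 (adjusted p = 0.104). Averaged over the 5 times, mir-72 was 0.074 ± 0.022 higher with rotenone (adjusted p = 0.014), where 8.29% of hairpins were higher, while mir-73 (0.053 ± 0.042, adjusted p = 0.409) and mir-74 (0.024 ± 0.029, adjusted p = 0.592) did not pass. The lanes move with these differences. At each of the 3 times with a group on lane 8, mir-72 was higher in that group, and the groups did not overlap. mir-74 was higher in the lane 8 group at 6 hours and 3 days but not at 1 day (-0.022 for rotenone, on lane 8, over DMSO). Of the 193 hairpins 21.8% had the higher mean in the lane 8 group at all 3 times and 3.11% without overlap. In a model with additive terms for time, treatment and lane, lane 8 exceeded the mean of the other lanes by 0.26 ± 0.033 for mir-72 (adjusted p = 1.66e-07), by 0.23 ± 0.047 for mir-74 (adjusted p = 0.00044) and by 0.065 ± 0.060 for mir-73 (adjusted p = 0.582), with 23 hairpins passing. In that model rotenone differed from DMSO by 0.032 ± 0.026 for mir-72 (adjusted p = 0.45), by 0.054 ± 0.047 for mir-73 (adjusted p = 0.49) and by -0.039 ± 0.037 for mir-74 (adjusted p = 0.536). The lane term and a rotenone change that differs between times cannot be told apart in this design.

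The ratios between members give the treatment comparison free of scaling, though not of lanes. With 3 libraries against 3 the exact two-sided permutation test cannot go below p = 0.1, and of 15 comparisons (3 ratios at 5 times) none passed after adjustment. mir-74 over mir-72 did not overlap between treatments at 6 hours (-0.21 ± 0.066 on the log2 scale), 1 day (-0.32 ± 0.048) and 5 days (0.21 ± 0.048), each with an exact permutation p = 0.1 (adjusted p = 0.188). mir-73 over mir-72 did not overlap at 1 day (-0.27 ± 0.088), 2 days (-0.19 ± 0.049) and 5 days (0.18 ± 0.052), with the same p-values. mir-74 over mir-73 did not overlap at 6 hours (-0.45 ± 0.15, the largest of the 15 differences) and 2 days (0.24 ± 0.057), again with these p-values. Of single hairpins, 16.1% (5 days) to 46.1% (2 days) did not overlap between rotenone and DMSO. How often ratios of other pairs of hairpins do so was not examined. At 3 days, when mir-72 and mir-74 both rose, mir-74 stood at 0.747% ± 0.0278 of mir-72 counts in rotenone and 0.743% ± 0.0386 in DMSO (SD, n = 3). Averaged over times, rotenone minus DMSO was -0.051 for mir-74 over mir-72, -0.018 for mir-73 over mir-72 and -0.033 for mir-74 over mir-73 (permutation within times, adjusted p = 0.75 for each).

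By likeness of the 12 group means of log2 CPM, given as a description over groups that share lanes and scaling, mir-74 and mir-73 resembled each other (Pearson r = 0.936), and neither resembled mir-72 (r = -0.308 for mir-74 and -0.215 for mir-73). The hairpins nearest to mir-74 were mir-4813 (0.969), mir-42 (0.952) and mir-43 (0.949), and the same 3 were nearest to mir-73 at 0.924, 0.919 and 0.929. mir-42 belongs to the mir-35 family of oocyte and embryo miRNAs, and mir-42 and mir-43 come from 1 gene cluster. Their span was wider: mir-42 ran from 36.8 ± 7.45 CPM in rotenone at 6 hours to 293 ± 8.05 CPM in DMSO at 2 days (SD, n = 3). In 2 comparisons between times mir-42 fell more than the rest of its family. Between 2 and 3 days in DMSO it changed by -1.07, and mir-35 to mir-41 by -0.44 (mir-38) to 0.17 (mir-35). Between 1 and 5 days in H2O it changed by -1.29, and mir-35 to mir-41 by -0.87 (mir-41) to 0.016 (mir-35). Between 2 and 3 days in rotenone mir-42 did not stand apart, at -0.50 against -0.51 for mir-41. Nearest to mir-72 were mir-58a (0.958) and mir-80 (0.958), abundant members of the bantam-like family, and mir-248 (0.94). The 3 nearest to mir-73 depended on the measure: with Spearman's rho 0 of them, and with total counts 1, remained among its nearest 3.

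**Figure D4:**
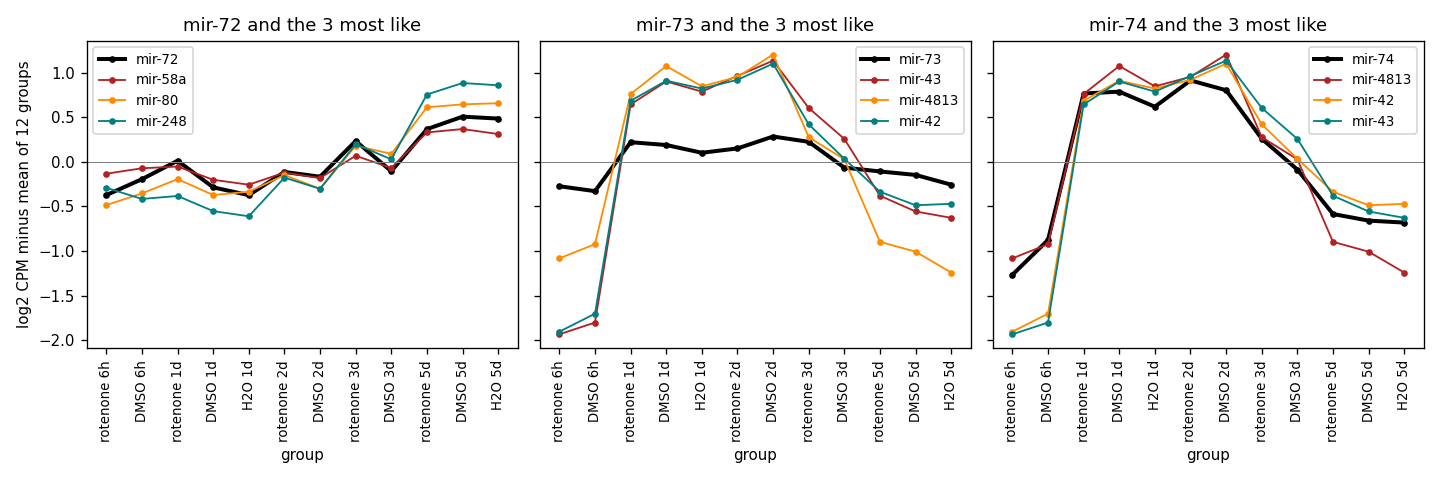
Log2 CPM of each member (black) and of the 3 hairpins with the most similar course (colours), as the difference from its mean over the 12 groups, with groups in order of time and within a time rotenone, DMSO and H2O. mir-73 and mir-74 share the low values at 6 hours and 5 days with mir-42, mir-43 and mir-4813, and mir-72 shares its high values at 5 days with mir-58a, mir-80 and mir-248.

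Markers of other tissues and stages moved with time as well, and their part in the courses of the 3 hairpins was not tested. The 8 oocyte and embryo hairpins, mir-35 to mir-42, had a summed level of 19346 ± 4035 CPM in rotenone and 23467 ± 1407 CPM in DMSO at 6 hours (SD, n = 3), and means between 101985 and 148979 CPM in the 10 later groups, with 0 of the 8 undetected. Between 6 hours and 1 day all 8 rose in either treatment, where 32.6% of all 193 hairpins rose in rotenone and 30.6% in DMSO. Between 2 and 3 days, when mir-74 fell, 2 of the 8 rose and 2 fell in rotenone. In DMSO 0 rose and 3 fell at that step. Between 3 and 5 days all 8 fell in rotenone and 5 in DMSO. In the pairs of times that shared a lane, mir-74 fell in both, and the 8 differed. On lane 8, between 1 and 3 days in rotenone, 6 rose and 2 fell, where 21.2% of all 193 rose and 21.2% fell. On lane 1, between 2 and 5 days in DMSO, 0 rose and 6 fell, where 33.2% rose and 34.7% fell. With rotenone 5 of the 8 fell at 6 hours and 4 rose at 3 days, the times at which mir-74 fell and rose. Lane 8 held DMSO at 6 hours and rotenone at 3 days. At 6 hours mir-35, mir-38, mir-39 and mir-40 passed narrowly (adjusted p from 0.0428 to 0.0460). Fitted to the 6 libraries of that time alone, 0 hairpins passed. Of all 193 hairpins 10.9% fell at 6 hours and 8.29% rose at 3 days. At 3 days the sum of the 8 was 148979 ± 16155 CPM in rotenone and 125240 ± 1124 CPM in DMSO. Of the 5 hairpins that time larval stages (lin-4, let-7, mir-48, mir-84 and mir-241), 3 rose with rotenone at 1 day and 4 at 2 days. Of all 193 hairpins 10.4% and 21.2% rose at these times. Between 3 and 5 days, when mir-72 rose, 3 of these 5 rose and 1 fell in rotenone, and 4 rose and 0 fell in DMSO. At this step 21.8% of all 193 rose and 27.5% fell in rotenone, and 22.8% rose and 22.8% fell in DMSO. Between 6 hours and 1 day all 5 of these stage hairpins fell in either treatment, where 31.1% of all 193 fell in rotenone and 34.7% in DMSO. They fell between 1 and 2 days as well, where 22.3% fell in rotenone and 25.4% in DMSO. Of 4 neuronal hairpins (lsy-6, mir-124, mir-790 and mir-791), 3 fell with rotenone at 2 days (median -0.45), where 21.2% of all 193 fell. The summed level of the 4 was then 158 ± 0.886 CPM in rotenone and 230 ± 37.4 CPM in DMSO (SD, n = 3). Between 3 and 5 days 3 of these 4 fell and 1 rose in rotenone, and 3 fell and 0 rose in DMSO. In rotenone mir-1 of muscle fell by 0.37 on the log2 scale between 2 and 3 days and by 0.58 between 3 and 5 days. In DMSO it fell by 0.37 and 0.55 (adjusted p from 5.27e-06 to 0.00302). mir-74 fell at these steps too. Between 6 hours and 1 day, when mir-74 rose, mir-1 did not pass (-0.047 in rotenone, adjusted p = 0.692, and -0.016 in DMSO, adjusted p = 0.897). mir-228 of glia fell between 2 and 3 days in DMSO (-0.32) and between 3 and 5 days in rotenone (-0.29) and DMSO (-0.27). It also fell between 6 hours and 1 day, when mir-74 rose (-0.36 in rotenone and -0.73 in DMSO). Between 1 and 2 days mir-228 rose in DMSO (0.34). Between treatments, mir-1, at 347 to 673 CPM over the groups, and mir-60 of the intestine, at 1662 to 2162 CPM, did not pass between rotenone and DMSO at any of the 5 times. mir-228 fell with rotenone at 2 days, to 23787 ± 3111 CPM in rotenone against 33074 ± 5838 CPM in DMSO.

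Beside the 3 members, 10 hairpins linked to stress responses were counted (mir-34, mir-64, mir-65, mir-66, mir-71, mir-80, mir-229, mir-239a, mir-239b and mir-246). Among these 10, rotenone was followed by 0 rises and 1 fall at 6 hours, 2 rises and 0 falls at 1 day, 6 and 0 at 2 days, 1 and 1 at 3 days, and 0 and 2 at 5 days. Of all 193 hairpins 10.9% fell at 6 hours, 10.4% rose at 1 day, 21.2% rose at 2 days, 8.29% rose and 4.15% fell at 3 days, and 1.04% fell at 5 days. The 6 at 2 days became 2 with total counts, without the filter, in a fit of these 6 libraries alone or without DMSO replicate 3. The 2 at 5 days became 0 with each of these scalings and fits and without rotenone replicate 1 or DMSO replicate 3, and 1 with DESeq2 size factors or without rotenone replicate 3 or DMSO replicate 2. At 3 days the 2 became 0 without the filter. The counts at 6 hours, 1 day and 3 days also fell to 0 or 1 without single libraries. Their median change was 0.17 at 2 days and -0.034 at 3 days, against 0.021 and 0.011 over all 193 hairpins. mir-72, mir-73 and mir-74 had medians of 0.053 and 0.34 at these times.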

How the data were processed

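The authors deposited raw read counts per miRNA hairpin for 36 libraries made with the TruSeq small RNA kit, with arms not separated. SAMtools 1.3.1-9, BWA 0.7.12-r1039, Trimmomatic 0.36 and bcl2fastq 1.8.4 are named in the submitters' processing notes. The build, annotation and treatment of multiply matching reads were not given in the sources used here. No coordinates are printed. Groups came from the labels of treatment and time. Total counts ran from 4361246 to 14960062, and the counts of 2 libraries of a group differed by a chi-square of at least 19.5 per degree of freedom, so each was taken as a sample of its own.

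filterByExpr in R 4.3.3 (minimum count 10) kept 193 of 250 hairpins. TMM factors, from 0.854 to 1.16, set the scaling. A quasi-likelihood model in edgeR 4.0.16 gave each group its own mean over the 36 libraries (24 residual degrees of freedom), and Benjamini-Hochberg adjustment was made separately for each comparison. The fit was tested on simulated data. Ratios were tested by permutation in Python 3.11.15. Alternatives were DESeq2 size factors, total counts, library totals without the 3 members, no filter, DESeq2 1.42.0, a replicate block, only the groups compared, each library left out in turn and an additive lane model. mir-72, mir-73 and mir-74 are named in every comparison, with the 3 hairpins most like each, the tissue markers and mir-75. The members and lists were chosen with earlier results of these data known. Neighbouring genes are those of the WBcel235 annotation.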

Additional observations from a re-analysis of the deposited data

Results flagged for a closer look

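The difference between rotenone and DMSO varied with time for mir-72 (F-test of the 5 differences in edgeR, adjusted p = 1.69e-07) and for mir-74 (adjusted p = 1.86e-06). mir-72 was lower with rotenone at 6 hours (log2 -0.18) and higher at 1 day (0.30) and 3 days (0.34), and mir-74 was lower at 6 hours (-0.39) and higher at 3 days (0.35). The group on lane 8 was higher in each of these cases, but not for mir-74 at 1 day, where rotenone was on lane 8 (-0.022), and time-dependent treatment and lane cannot be told apart.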

How the results depend on the processing

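Values are log2 changes of rotenone over DMSO unless another comparison is named. At 6 hours the fall of mir-72 (-0.18) did not pass with DESeq2 size factors (-0.14), total counts (-0.094), library totals without the 3 members (-0.070), no filter (-0.084) or only the groups compared (-0.10), and that of mir-74 (-0.39) with only the groups compared (-0.31). At 3 days the rise of mir-73 (0.28) did not pass with total counts (0.20), no filter (0.26) or only the groups compared (0.28). The mean over times of mir-72 (0.074) did not pass in the additive lane model (0.032), where that of mir-74 (0.024) turned to -0.039. Signs of differences that had not passed turned for mir-72 at 2 days (-5.1e-05) and mir-73 at 1 day (-0.053) with total counts and for mir-74 at 1 day without the filter (0.028). Between times they turned with total counts for mir-72 from 2 to 3 days in DMSO (-0.0042) and for mir-73 in rotenone from 1 to 2 days (0.014), 2 to 3 days (-0.026) and 1 to 3 days (-0.012). mir-73 from 1 to 2 days in rotenone also turned with DESeq2 size factors (0.0023) and DESeq2 (0.0023), and from 1 to 3 days without the filter (-0.041). The F-test of mir-73 (adjusted p = 0.104) passed with total counts (adjusted p = 0.0353). The cause was not tested.

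Leaving out 1 library at a time, mir-72 ranged from -0.21 to -0.16 at 6 hours, mir-73 from -0.017 to 0.15 at 6 hours, from -0.047 to 0.12 at 1 day, from 0.18 to 0.36 at 3 days and from -0.0043 to 0.072 at 5 days, and mir-74 from -0.048 to 0.015 at 1 day. The call of mir-72 at 6 hours was lost without DMSO replicate 1 (adjusted p = 0.0532) or 2 (adjusted p = 0.0689) or rotenone replicate 1 (adjusted p = 0.0713) or 2 (adjusted p = 0.0543). The adjusted p of the F-test for mir-73 ranged from 0.0191 to 0.329. DMSO minus H2O at 5 days ranged from -0.010 to 0.067 for mir-72. From 1 to 2 days mir-73 ranged from -0.0040 to 0.19 in DMSO and from -0.12 to 8.3e-05 in rotenone, and mir-74 from -0.024 to 0.066 in DMSO. From 1 to 3 days in rotenone mir-73 ranged from -0.040 to 0.076. The mean log2 ratio of mir-73 to mir-72 ranged from -0.035 to 0.0016.

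Of the stress-associated hairpins, 1 passed at 6 hours and 0 with DESeq2 size factors (with or without the replicate block), only the groups compared or no filter (0 to 1 leaving out a library). At 1 day 2 passed (1 to 2). At 2 days 6 passed, and 2 with total counts, no filter or only the groups compared (2 to 6). At 3 days 2 passed, 1 with library totals without the 3 members or only the groups compared, and 0 with no filter (0 to 1). At 5 days 2 passed, 1 with DESeq2 size factors (with or without the block) and 0 with total counts, no filter or only the groups compared (0 to 2). Counts over all hairpins moved by over 1.5 times at 6 hours (23, and 0 to 15 under 6 alternatives), 5 days (2, and 0 or 1), against H2O at 5 days (2, and 0 to 8) and for the mean over times (43, and 20 in the lane model). Leaving out a library gave 10 to 17 at 6 hours, 10 to 21 at 3 days, against 24, 13 to 21 against H2O at 1 day, against 23, and 45 to 57 from 1 to 2 days in rotenone, against 68.

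Libraries with the same replicate number were not paired by the labels, and 4 of 15 rotenone and DMSO pairs had correlated deviations above 0.1 (-0.227 to 0.148). With the replicate block 8 hairpins passed against H2O at 5 days, the block made mir-72 pass from 1 to 2 days in DMSO (0.12) and mir-74 in rotenone (0.15), and it changed no other call of the 3 members.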
